A study of Mus musculus with 8 samples.

Results

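Collagens are the proteins that form the fibres, nets and filaments of the extracellular matrix. The genes described here are the 40 whose name on the array has the form Col, a number, a and a number, of 27745 gene names in all. Collagens that the array lists under other names, among them Col6a4, Col6a6 and Col26a1, fall outside this rule. The 40 genes were measured in heart RNA of 8 male mice aged 12 weeks, with 1 single-colour array per mouse. Of the mice, 4 overexpressed PKR2 and 4 were wild-type (WT). PKR2 was taken to be prokineticin receptor 2, which binds secreted prokineticins at the cell surface. The labels name no other allele or agent, and the promoter that drives the overexpression and the strain are not given in the sources used here. Each gene was read from its brightest probe by mean signal over the 8 arrays, without regard to group. Of the 40 genes, 33 had a probe well above background on 3 or more arrays of either group and were tested, and 27 were above it on all 8 arrays.

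A collagen molecule is a triple helix of 3 chains, made either of 1 chain repeated or of different chains from different genes. Fibril-forming collagens give tissue its tensile strength, type IV collagen forms the sheet of basement membranes around muscle cells and vessels, and type VI collagen forms fine filaments around cells. In the heart, fibroblasts make most of the fibrillar collagen, and more of it is the textbook sign of fibrosis. Chains need hydroxylation and a chaperone to fold in the cell, and fibrils are trimmed and crosslinked outside it.

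Among the genes described below, 2 pairs that encode chains of 1 molecule correlated at r = 0.90 over the 8 arrays. They were Col1a1 with Col1a2 (type I) and Col4a1 with Col4a2 (type IV). No r was computed for chains of different molecules, so these values do not show that such an r is particular to partners. Col6a1, a chain of another molecule, was highest on the same arrays as Col4a1 and Col4a2. For type I, r was 0.51 without arrays PKR2 1 and WT 1. Start regions of Col1a2, Col4a1 and Col4a2 are shown, and none was available for Col1a1. Any part of the sequences in the correlations was not tested. Start regions of Col3a1 and Col5a1, which belong to neither pair, are shown beside Col1a2 as other fibril genes. The sequences are from RefSeq (GRCm38.p6), which held a window of 250 bases before to 50 bases after the transcript start for 32 of the 40 genes. Capitals mark the motifs searched on both strands, namely TATAAA as well as CCAAT and also GGGCGG. For Col1a2 (chr6:4505498-4505617, plus strand), Col3a1 (chr1:45311418-45311537, plus strand) and Col5a1 (chr2:27886305-27886424, plus strand) the 120 bases before the start are given. For type IV the stretch from the start of Col4a2 to that of Col4a1 is given (chr8:11312805-11312826, read on the plus strand, the strand of Col4a2).
Col1a2: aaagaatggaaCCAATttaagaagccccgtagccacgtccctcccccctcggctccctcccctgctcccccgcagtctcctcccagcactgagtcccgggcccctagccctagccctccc
Col3a1: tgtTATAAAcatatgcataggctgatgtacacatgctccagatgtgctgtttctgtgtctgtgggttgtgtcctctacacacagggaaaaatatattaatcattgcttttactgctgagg
Col5a1: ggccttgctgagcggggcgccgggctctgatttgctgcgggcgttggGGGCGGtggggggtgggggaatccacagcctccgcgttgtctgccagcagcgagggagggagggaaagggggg
Col4a1 and Col4a2: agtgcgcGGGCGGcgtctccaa
The genes Col4a1 and Col4a2 lie head to head on opposite strands, with starts 21 bases apart. Each start lies past the other, so the 22 bases shown belong to both transcripts. The windows overlap by 78 bases, and the GGGCGG they share lies after both starts, not before them. The other type IV pair with windows, Col4a5 and Col4a6 on chromosome X, lies head to head without such an overlap. Its starts are 1343 bases apart, the bases between them precede both starts, and the windows do not overlap. Over the 35 collagen windows, GGGCGG was present in 20 (57.1%), against 35.7% of all 32851 windows. The 20 are not all separate, since both of the overlapping Col6a2 windows count, as do both windows that share the type IV site. CCAAT was present in 34.3% against 37.4%, and TATAAA in 14.3% against 13.6%. A match describes the letters and shows no binding.

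The arrays differed in depth of signal. Between 48.3% and 67.1% of an array's spots were well above background, and the 75th percentile of the processed signal lay between 38.1 and 736. Levels are log2 signal minus the array's own 75th percentile, so 0 is that percentile, and differences are PKR2 minus WT. Probes bind with different strength, so a level is compared between arrays and never between genes. All 8 cardiomyocyte markers were above background on every array. The probe for Prokr2, the receptor's own gene, was above background on no array (levels from -7.29 to -5.15), which leaves the genotype labels unchecked. Slides 5 and 6 held 1 array of each group, and position 4 of the slides held all PKR2 arrays and WT 1. A fit with slide as a fixed block thus takes its difference from slides 5 and 6 alone. One with array position as a covariate sets PKR2 against WT 1 alone. A lower scan range was used for WT 2, WT 4 and PKR2 4.

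**Figure D1:**
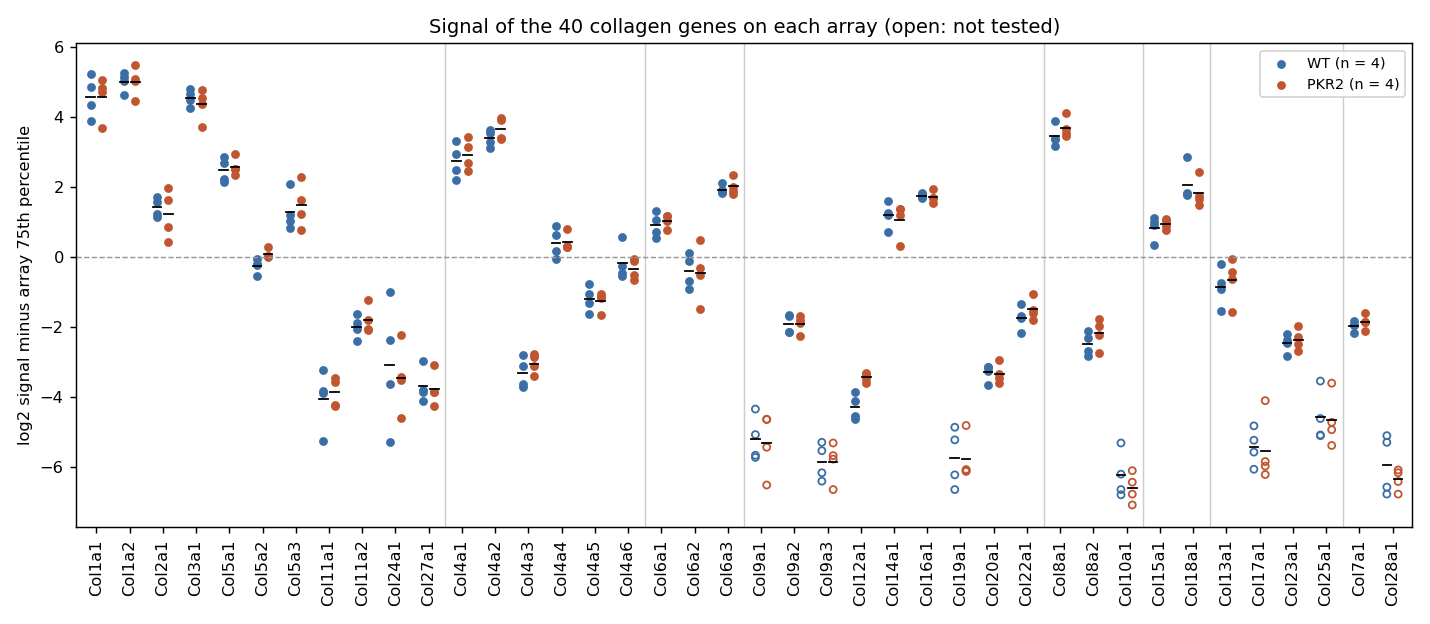
Level of each of the 40 collagen genes (log2 signal minus the array's 75th percentile, vertical axis) on the 4 WT arrays (blue) and the 4 PKR2 arrays (orange), with genes grouped by class along the horizontal axis and black lines at the group means. Open circles are the 7 genes not tested, and in nearly every gene the ranges of the groups overlap, though they are not always equally wide.

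The comparison of PKR2 with WT hearts asks which collagen transcripts differ between the genotypes. None of the 33 tested collagens passed an adjusted p of 0.05 in limma, where 0 of all 15683 features did (0%). At an unadjusted p under 0.05, 1 collagen was found (3.03%), against 376 features (2.4%), so the share was near the background. That gene was Col12a1, in the direction of higher PKR2 signal, in which 0.969% of all features were found, and it entered the test through the PKR2 arrays alone, with 1 WT array above background. The smallest adjusted p of any collagen was 1. The difference was above 0 for 20 of the 33 genes and for 48.1% of all features, and its median was 0.098, against -0.0079 over all features, but the collagen median was -0.067 under normexp background correction after common scaling, -0.0058 under normexp alone and -0.024 with array weights. Differences ran from -0.37 to 0.85. Of the 33, 11 differed by 0.2 or more in either direction (33.3%, against 27.9% of all features). The median spread within a group was an SD of 0.35 for collagens and 0.31 for all features, and the 95% interval of a collagen difference extended, at the median gene, 0.52 above and below it. In whole heart RNA, fewer cells of a type and less RNA per cell cannot be told apart.

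**Figure D2:**
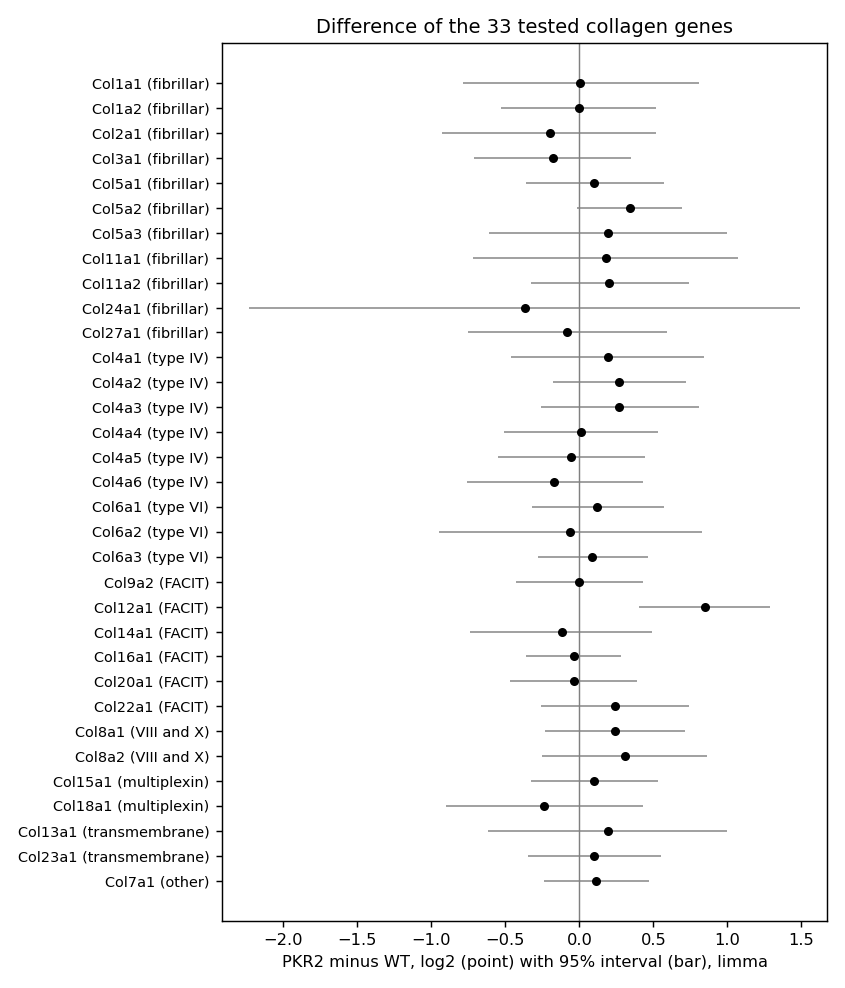
Difference PKR2 minus WT in log2 (horizontal axis, point) with its 95% interval from limma (bar, n = 4 arrays a group) for the 33 tested collagen genes, listed by class. The intervals of 32 genes include 0, and that of Col12a1 (0.40 to 1.29) does not, but its probe was above background on 1 of 4 WT arrays.

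The groups did not overlap for 2 of the 33 collagens (6.06%, against 1.57% of all features), Col12a1 and Col5a2. Both had higher signal in PKR2, the direction in which 0.701% of all features did not overlap. The Col12a1 probe was above background on 1 WT array and 4 PKR2 arrays, so it was tested through the PKR2 group alone. The share of 6.06% thus rests in part on a gene selected by the group in which it is high, and is given as a description. Col5a2 was above background on every array.

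Col12a1 encodes type XII collagen, a chain that sits on the surface of type I fibrils. Its levels were -3.85, -4.54, -4.64 and -4.13 in WT 1 to 4 and -3.61, -3.35, -3.32 and -3.48 in PKR2 1 to 4. The signal was low throughout, and the probe (chr9:79385147-79385206, mm8) was above background on 1 WT array and on 4 PKR2 arrays, so the gene entered the test through the PKR2 group. The fitted difference was 0.85 (SE 0.20, adjusted p = 1 in limma), which sets the PKR2 levels against WT values mostly at background and is given as a description. It was 1.31 within slide 5 and 0.64 within slide 6. The value was 0.24 in the deposited value table, 0.41 with array position as a covariate, and below 0 under both normexp corrections (-0.54 and -0.15). The other Col12a1 probe was above background on no array.

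Col5a2 encodes the second chain of type V collagen, which is built into type I fibrils and limits their width. Its levels were -0.06, -0.20, -0.56 and -0.22 in WT 1 to 4 and 0.01, 0.00, 0.02 and 0.28 in PKR2 1 to 4. The gap between the groups was narrow, with WT 1 (-0.06) just below PKR2 2 (0.00). The single probe (chr1:45321322-45321381, mm8) was above background on all 8 arrays. The difference was 0.34 (SE 0.16, unadjusted p = 0.0602, adjusted p = 1 in limma), 0.58 within slide 5 and 0.50 within slide 6. Under the 23 alternative settings it was never below 0. It ran from 0.14, with array position as a covariate (PKR2 against WT 1 alone), to 0.54, with slide as a fixed block (slides 5 and 6 alone).

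For the other type V chains the groups overlapped. Col5a1, the chain present in nearly every type V molecule, stood at 2.15, 2.84, 2.67 and 2.23 in WT and at 2.35, 2.95, 2.50 and 2.51 in PKR2 hearts. The difference was 0.10 (SE 0.21). Col5a3, a chain of restricted use, averaged 1.28 ± 0.55 (SD, n = 4) in WT and 1.47 ± 0.64 in PKR2 hearts.

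The main fibril genes did not differ between the groups beyond their spread. Col1a1, which gives the type I molecule its repeated chain, stood at 3.87, 5.21, 4.84 and 4.35 in WT 1 to 4 and at 3.69, 5.06, 4.70 and 4.83 in PKR2 1 to 4. The lowest array of each group was its replicate 1 and the highest its replicate 2, a numbering that pairs nothing. The difference was 0.0054 (SE 0.36, 95% interval -0.79 to 0.81). A second, dimmer Col1a1 probe gave a difference of 0.45 between the group means.

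Col1a2, the other type I chain, stood at 4.62, 5.24, 5.01 and 5.13 in WT and at 4.45, 5.47, 5.02 and 5.07 in PKR2 hearts. The same arrays were low and high as for Col1a1, and the difference was -0.0018 (SE 0.23). Col3a1, whose chain forms type III collagen alone and runs in mixed fibrils with type I, stood at 4.48, 4.64, 4.24 and 4.79 in WT and at 4.38, 4.55, 4.77 and 3.72 in PKR2 hearts. Array PKR2 4 lay below all others, and the difference of -0.18 (SE 0.24) was 0.03 without it.

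Fibrillar genes best known from cartilage were also measured. Col2a1, the chain of type II collagen, averaged 1.41 ± 0.28 (SD, n = 4) in WT and 1.21 ± 0.70 in PKR2 hearts. Arrays PKR2 1 and PKR2 2 were lowest, at 0.43 and 0.84, and both also had the lowest scores of the adipocyte markers (a score is the mean log2 deviation of a list's genes on an array), -2.32 and -2.03. Of the 10 adipocyte markers, 9 were tested and all 9 had lower PKR2 means, none with an adjusted p under 0.05 but 8 with an unadjusted p under 0.05 in limma. Their median difference was -2.2, with scores of -0.069 to 1.24 in WT and -2.32 to 0.47 in PKR2 hearts and Lep above background on 1 array of each group. The mesothelial score was also lowest on PKR2 1 and PKR2 2 (-0.56 and -0.36, against 0.079 to 0.22 on the other 6 arrays), and all 8 mesothelial markers had lower PKR2 means, 0 with an unadjusted p under 0.05. Of 6 cartilage markers, 2 were tested and 3 (Matn1, Matn3 and Hapln1) were above background on no array. The part of these cell types in the Col2a1 values was not tested.

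Col11a2, a type XI chain that starts fibrils, differed by 0.20 (SE 0.24). Col24a1, a minor fibrillar chain, had the widest spread of the family, from -5.29 to -1.01 in WT and from -4.61 to -2.23 in PKR2 hearts, and its mean difference of -0.37 was far inside that spread. Of the 11 fibrillar genes tested, 6 had a difference above 0, and the median was 0.0054.

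Type IV collagen, the net of the basement membrane, had 6 of 6 genes above background on all arrays and 4 of 6 differences above 0. Col4a1 and Col4a2 supply the common form of that net. Col4a1 (chr8:11198981-11199040, mm8) stood at 2.94, 2.47, 2.20 and 3.30 in WT 1 to 4 and at 3.15, 2.44, 2.67 and 3.43 in PKR2 1 to 4. Col4a2 (chr8:11448812-11448871, mm8) stood at 3.55, 3.28, 3.12 and 3.62 in WT and at 3.97, 3.40, 3.38 and 3.91 in PKR2 hearts. For both genes, WT 1, WT 4, PKR2 1 and PKR2 4 were the 4 highest arrays, so the range within each group was larger than the gap between the group means. The differences were 0.19 (SE 0.29) and 0.27 (SE 0.20). That of Col4a2 stayed above 0 in all 23 alternatives (0.11 to 0.63), while that of Col4a1 was -0.02 with array position as a covariate. A second probe of each gene gave 0.24 for Col4a1 and 0.33 for Col4a2.

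The chains of the more specialised basement membranes had small differences. Col4a3, known from the filter of the kidney, averaged -3.32 ± 0.43 (SD, n = 4) in WT and -3.05 ± 0.28 in PKR2 hearts. Its difference of 0.27 (SE 0.24) was below 0 under both normexp corrections (-0.50 and -0.22). Col4a6, found in smooth muscle basement membranes, differed by -0.17 (SE 0.26), and by 0.078 without WT 2, its highest array at 0.56. Col4a4 and Col4a5 differed by 0.013 and -0.055.

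Type VI collagen is assembled from Col6a1, Col6a2 and a further chain such as Col6a3. Col6a1 stood at 1.04, 0.71, 0.55 and 1.32 in WT and at 1.18, 0.78, 1.01 and 1.16 in PKR2 hearts. Col6a2 stood at 0.12, -0.68, -0.93 and -0.11 in WT and at 0.49, -0.51, -1.49 and -0.33 in PKR2 hearts. Its lowest and highest arrays were both in the PKR2 group. The differences were 0.12 (SE 0.20) for Col6a1, -0.061 (SE 0.40) for Col6a2 and 0.086 (SE 0.17) for Col6a3, and none stood out from its spread.

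The type VI chains and the type IV pair tended to be high on the same arrays. The type VI score was above 0 on WT 1 (0.19), WT 4 (0.27), PKR2 1 (0.39) and PKR2 4 (0.23), and below 0 on the other 4. Those 4 arrays were also the highest for Col4a1, Col4a2 and Col6a1, and their endothelial marker scores were 0.12, 0.24, 0.10 and 0.063, against -0.16 to -0.079 on the other 4. All 8 endothelial markers were above background on every array, and 4 of the 8 had a difference above 0. The cartilage score, from 2 genes, split the arrays in the same way (0.24, 0.0081, 0.47 and 0.26, against -0.53 to -0.086). Both matches were noticed in the values, and the part of other cell types in them was not tested.

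Fibrillar genes followed another order of arrays. Their score was highest on WT 2 (0.40) and PKR2 2 (0.33) and lowest on PKR2 1 (-0.37) and WT 1 (-0.31). Fibroblast markers scored 0.15 on both WT 2 and PKR2 2, -0.15 on WT 1 and -0.072 on PKR2 1. Other lists were also highest on WT 2 and PKR2 2, namely mural markers (0.37 and 0.20), cardiomyocyte markers (0.09 and 0.30), collagen maturation genes (0.13 and 0.18) and breakdown genes (0.21 and 0.16). These arrays had the lowest shares of spots above background, 48.3% and 52.8%. Of 10 fibroblast markers 9 were tested, all above background on every array, with 5 differences above 0 and a median of 0.011. Fibroblast scores ran from -0.15 to 0.15 in WT and from -0.072 to 0.15 in PKR2 hearts, and the part of these lists or of depth in the fibrillar values was not tested. Of 7 markers of activated fibroblasts, 5 were tested and 5 had a difference above 0, none with an adjusted p under 0.05. Of the 5, 1 had an unadjusted p under 0.05 in limma, a threshold that 0.969% of all features met in that direction. It was Cilp, which differed by 0.51 (SE 0.21) without overlap of the groups. Cthrc1 was above background on no array.

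**Figure D3:**
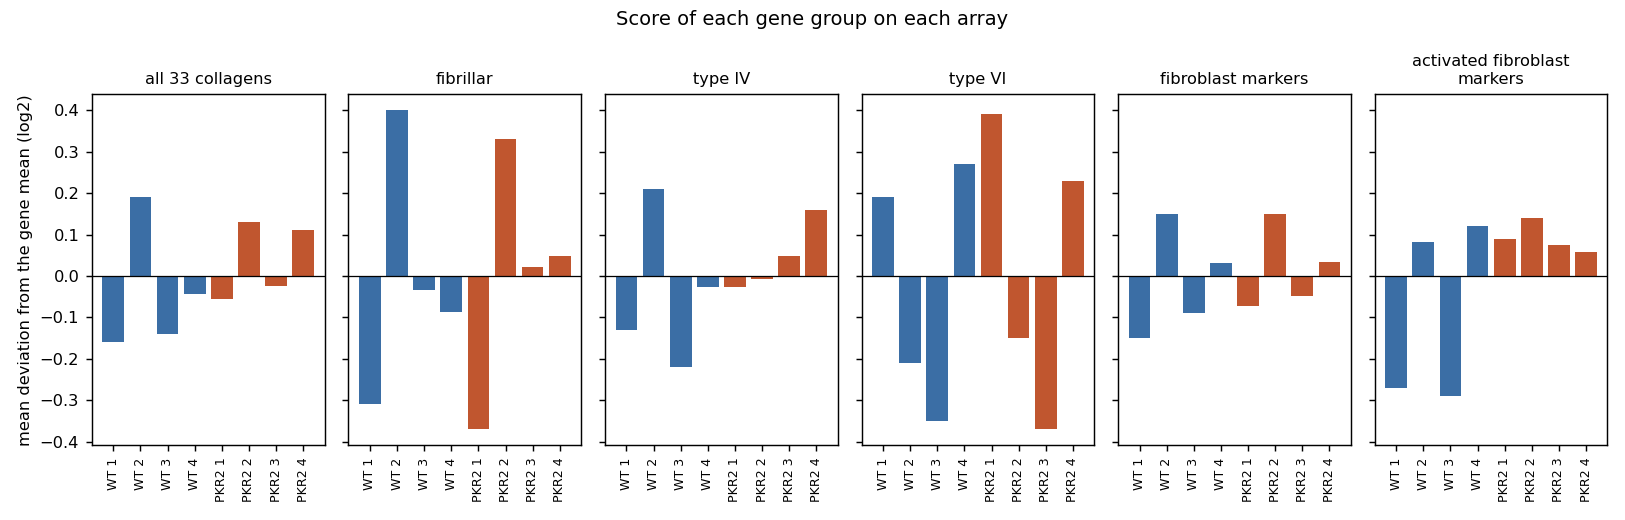
Score of each gene group on each array (vertical axis, mean over the group's tested genes of the log2 deviation from the gene's own mean over 8 arrays), WT in blue and PKR2 in orange. Fibrillar collagens and fibroblast markers are highest on WT 2 and PKR2 2, as are mural (0.37 and 0.20) and cardiomyocyte (0.09 and 0.30) markers, not drawn, while the type VI score is above 0 on WT 1, WT 4, PKR2 1 and PKR2 4.

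For chains of 1 molecule, the question was whether their levels moved together over the 8 arrays, tested for 4 pairs with two-sided exact permutation of the pairings and Benjamini-Hochberg adjustment over the 4. All points share the normalization of their array. Col1a1 and Col1a2 correlated at r = 0.90 (exact p = 0.00414, adjusted p = 0.00828) and rho = 0.76 (exact p = 0.0368, adjusted p = 0.0611). Without PKR2 1 and WT 1, the arrays farthest from the Col1a1 median, r was 0.51, so the size of the type I r depended on those arrays. In every pair, the arrays left out were those farthest from the median of the chain named first. Leaving them out also narrows the range of that chain, which can by itself lower r. Col4a1 and Col4a2 correlated at r = 0.90 (exact p = 0.00275, adjusted p = 0.00828) and rho = 0.86 (exact p = 0.0107, adjusted p = 0.0429), and r was 0.79 without PKR2 4 and WT 3. With each group centred on its mean and pairings permuted within groups, r was 0.90 for type I and 0.92 for type IV (exact adjusted p = 0.0347 for each).

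For the remaining pairs r was lower, but by rank Col6a1 with Col6a2 (rho = 0.74) was near Col1a1 with Col1a2 (rho = 0.76). Col6a1 and Col6a2 gave r = 0.53 (exact p = 0.176, adjusted p = 0.235) and rho = 0.74 (exact p = 0.0458, adjusted p = 0.0611), and r = 0.40 without WT 2 and WT 3. Col5a1 and Col5a2 gave r = -0.13 (exact p = 0.778, adjusted p = 0.778) and rho = -0.02 (exact p = 0.977, adjusted p = 0.977), and r = -0.30 without PKR2 2 and WT 1. Whether r differed between pairs was not tested. No r was computed for chains of different molecules, so whether such values are particular to partner chains was not tested either.

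**Figure D4:**
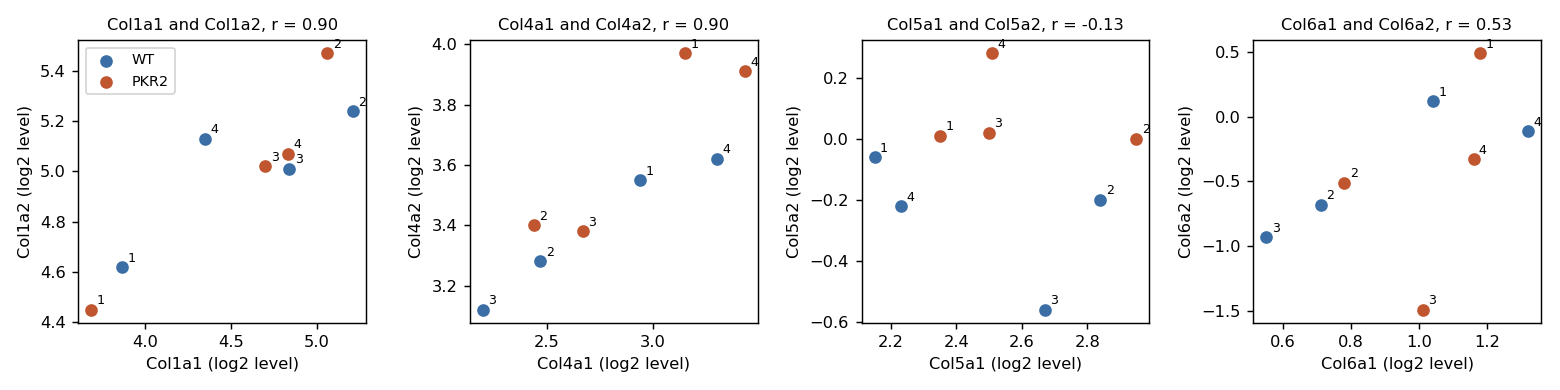
Level of 1 chain (horizontal axis) against its partner (vertical axis), both log2 signal minus the array's 75th percentile, for 4 pairs over the 8 arrays (WT blue, PKR2 orange, numbers are replicates). The points of Col4a1 and Col4a2 lie along a line (r = 0.90), and those of Col5a1 and Col5a2 do not (r = -0.13). Those of Col1a1 and Col1a2 also do so, but less closely without the low WT 1 and PKR2 1 arrays (r = 0.51).

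Collagens that attach to fibrils without forming them, the FACIT group, had 6 of 9 genes tested, with 2 differences above 0 and a median of -0.021. Col14a1, a relative of Col12a1 on fibril surfaces, stood at 0.71, 1.59, 1.20 and 1.24 in WT and at 0.32, 1.36, 1.38 and 1.19 in PKR2 hearts. Its difference of -0.12 (SE 0.28) was 0.13 without PKR2 1, the lowest array. Col22a1, found where muscle meets tendon, differed by 0.24 (SE 0.22), but by -0.26 under normexp and by -0.15 with slide as a fixed block. Col16a1 varied little, from 1.67 to 1.82 in WT and from 1.55 to 1.95 in PKR2 hearts. Col9a2 and Col20a1 differed by -0.0039 and -0.037.

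The short-chain collagens of type VIII form nets in vessel walls. Col8a1 stood at 3.36, 3.88, 3.38 and 3.16 in WT and at 3.54, 4.12, 3.65 and 3.44 in PKR2 hearts. The groups overlapped, and the difference of 0.24 (SE 0.21) stayed above 0 in all 23 alternatives (0.059 to 0.58), although a second, dimmer probe gave -0.07. Col8a2 stood at -2.33, -2.84, -2.70 and -2.11 in WT and at -1.79, -2.76, -2.23 and -1.97 in PKR2 hearts. Its difference of 0.31 (SE 0.25) was below 0 under both normexp corrections (-0.44 and -0.17).

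The multiplexins Col15a1 and Col18a1 encode basement membrane collagens, and the end of the Col18a1 chain is released as endostatin. Col15a1 averaged 0.83 ± 0.34 (SD, n = 4) in WT and 0.93 ± 0.15 in PKR2 hearts, with a difference of 0.098 (SE 0.19) that was -0.067 without WT 1. Col18a1 stood at 1.76, 2.85, 1.80 and 1.82 in WT and at 1.47, 2.43, 1.74 and 1.64 in PKR2 hearts. Replicate 2 of each group was high, and the difference of -0.24 (SE 0.30) was 0.028 without WT 2. A second Col18a1 probe gave -0.23 with all arrays.

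Of 4 transmembrane collagens, Col13a1 and Col23a1 were tested and differed by 0.19 and 0.098, both inside their spread. Col7a1, the anchoring fibril collagen of skin, was above background on all 8 arrays and differed by 0.11 (SE 0.16), though by -0.37 under normexp. The 7 collagens not tested were Col9a1, Col9a3, Col10a1, Col17a1, Col19a1, Col25a1 and Col28a1. Of these, Col9a3, Col10a1, Col17a1 and Col28a1 were above background on no array, Col9a1 and Col19a1 on 1 PKR2 array, and Col25a1 on 1 array of each group, so no fold is given. Col10a1 and Col9a1 are best known from cartilage, Col17a1 from the attachment of skin cells and Col25a1 from neurons.

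A second probe of the same gene could be tested for 14 collagens, and its difference had the same sign as that of the brightest probe for 10 of them. The 4 exceptions were Col4a4 (0.013 and -0.03), Col8a1 (0.24 and -0.07), Col23a1 (0.098 and -0.15) and Col27a1 (-0.082 and 0.54). All these differences were inside the typical interval of 0.52 except that of the second Col27a1 probe, which was above background on 1 WT and 3 PKR2 arrays.

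**Figure D5:**
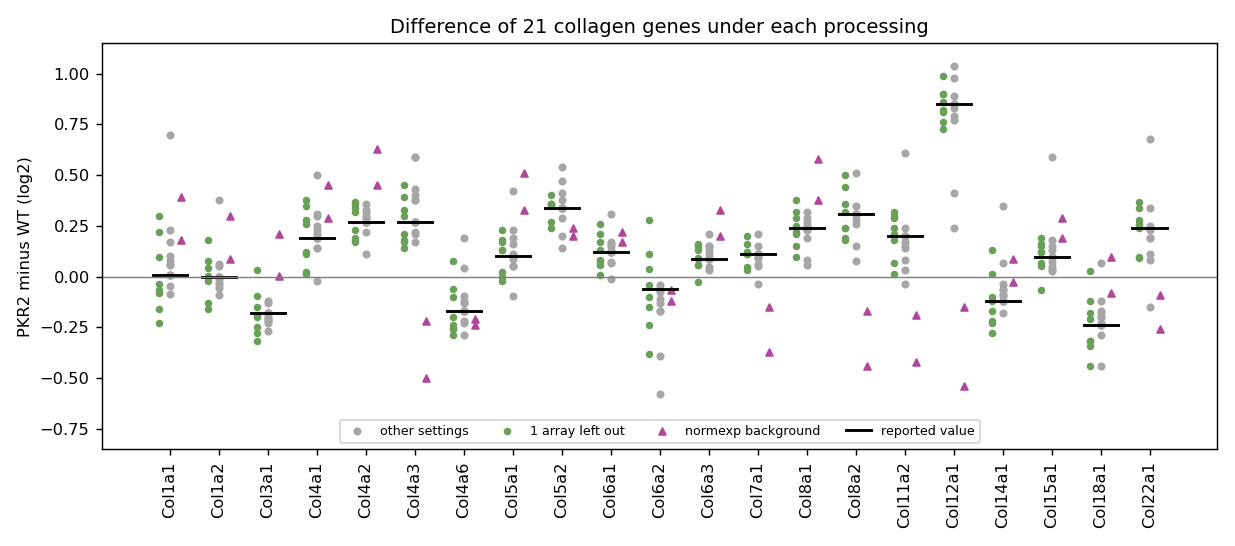
Difference PKR2 minus WT in log2 (vertical axis) for 21 collagen genes as reported (black line), with 1 array left out (green), under the normexp background corrections (purple triangles) and under the other settings (grey). All points lie above 0 for Col4a2, Col5a2 and Col8a1, while Col12a1, Col8a2 and Col4a3 are below 0 under normexp only.

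The genes that process collagen were examined in 4 lists, and no member passed an adjusted p of 0.05 in limma or an unadjusted p under 0.05. Of 26 maturation genes (hydroxylases, chaperones and propeptide proteases) 22 were tested, with 13 differences above 0 and a median of 0.032. Plod1, a lysyl hydroxylase, differed by 0.36 (SE 0.19) and P4ha1, a prolyl hydroxylase subunit, by 0.22 (SE 0.16). Serpinh1, which encodes the collagen chaperone HSP47, averaged 6.22 ± 0.47 (SD, n = 4) in WT and 6.25 ± 0.36 in PKR2 hearts.

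Of 6 crosslinking genes 5 were tested, with 1 difference above 0 and a median of -0.035. Lox, the lysyl oxidase, differed by -0.24 (SE 0.44), but by 0.47 with slide as a fixed block, and its relative Loxl1 by 0.081 (SE 0.17). Of 10 collagen receptors 8 were tested, with 6 differences above 0 and a median of 0.082. Mrc2, which takes up collagen fragments, differed by 0.26 (SE 0.25), though by -0.36 with array position as a covariate, and Itga1, an integrin chain, by 0.097 (SE 0.15). Of 12 breakdown genes 10 were tested, with 3 differences above 0 and a median of -0.071. The gelatinase Mmp9 differed by -0.28 (SE 0.17) and Pepd, which splits the last dipeptides of collagen, by -0.38 (SE 0.29).

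Slides 5 and 6 allow the groups to be set side by side on 1 slide. The median collagen difference was 0.099 on slide 5, with 21 of 33 genes above 0, and 0.16 on slide 6, with 23 of 33. Each of these sets 1 array against 1. With slide as a fixed block, arrays alone on their slide add nothing to the difference, so that fit restates slides 5 and 6. In it no collagen passed the threshold in limma and 24 of 33 differences were above 0. Its median collagen difference was 0.12, against -0.049 over all features. The share of all features above 0 was not counted for these comparisons.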

How the data were processed

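Heart RNA of 4 WT and 4 PKR2 mice was hybridised to 1-colour Agilent arrays, 1 array per mouse. The deposited scanner values are spot intensity on a linear scale, already background-subtracted and, per the file headers, read with Agilent Feature Extraction 9.5.1.1 on build mm8. The authors' deposited value table holds intensity whose normalization is not given in the sources used here. Its column medians were 139 to 144, and it served as an alternative.

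Processed signals were converted to log2, and each array's 75th percentile over non-control probes was subtracted. Control and outlier spots were left out and spots of a probe averaged (43379 spots, 41174 probes). The brightest probe stood for each gene name, and a feature was tested when well above background on at least 3 arrays of a group. The comparison used the R package limma (version 3.58.1 under R 4.3.3, package data.table, version 1.17.8), without covariates, with Benjamini-Hochberg adjustment over all features at 0.05. The fit was tested on simulated data. The number of arrays limits the precision.

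Members and gene lists were chosen with earlier results of these data known. Single values are given for 15 preset collagens, the 6 others of smallest p and 2 genes of smallest p per pathway list. Other members are given by level, range, difference or count, and Serpinh1 and Cilp were named after their values were seen. Alternatives covered background correction, scaling, the deposited values, probe filters, probe and name choice, slide, array position, scan range, variance model, array weights and leaving out each array.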

Additional observations from a re-analysis of the deposited data

Results flagged for a closer look

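Of 66 groups of 4 arrays (33 genes in 2 groups), 3 had 1 array standing far from the other 3, by the ratio of its gap to the group's range. Chance alone marks about 1 in 20 groups. Col18a1 in WT 2 stood at 2.85, with the other WT arrays between 1.76 and 1.82. Col4a4 in PKR2 2 stood at 0.79, with the others between 0.27 and 0.31. Col5a2 in PKR2 4 stood at 0.28, with the others between 0.00 and 0.02, and without that array the Col5a2 difference was 0.27.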

How the results depend on the processing

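No collagen passed the threshold under any of the 23 alternatives. With RefSeq gene names in place of the array's own, 35 collagens were tested. All differences here are PKR2 minus WT in log2. The count of all features past the threshold was 0 as reported and 1 under normexp after common scaling, median scaling, a filter of all arrays above background, slide as a random block, array position, trended robust variance and without PKR2 3 (0 to 1 with 1 array left out). The median collagen difference was -0.067 under normexp after common scaling. Signs turned as follows, and the cause was not tested. Under normexp, the values were Col1a2 0.30, Col3a1 0.21, Col12a1 -0.54, Col14a1 0.089, Col18a1 0.098, Col8a2 -0.44, Col4a3 -0.50, Col22a1 -0.26, Col11a2 -0.42, Col7a1 -0.37, Pepd 0.0043 and Itga1 -0.27. Under normexp after common scaling they were Col1a2 0.086, Col3a1 0.0004, Col12a1 -0.15, Col8a2 -0.17, Col4a3 -0.22, Col22a1 -0.093, Col11a2 -0.19, Col7a1 -0.15 and Itga1 -0.081. Quantile normalization gave Col1a2 0.051, median scaling Col1a1 -0.048, scan range Col1a2 0.061, the mean of all probes Itga1 -0.015, and the deposited values Itga1 -0.014 and Loxl1 -0.052. Slide as a fixed block gave Col14a1 0.066, Col22a1 -0.15, Col4a6 0.04 and Lox 0.47, and as a random block Lox 0.0012. Array position, which sets PKR2 against WT 1 alone, gave Col1a2 0.38, Col4a1 -0.02, Col6a1 -0.012, Col14a1 0.35, Col18a1 0.065, Col7a1 -0.039, Col4a6 0.19, Pepd 0.088, Mrc2 -0.36 and Itga1 -0.15. Array weights gave Col1a1 -0.086, Col5a1 -0.096, Col11a2 -0.036 and Lox 0.49. With 1 array left out, Col1a1 ran from -0.23 to 0.30 (below 0 without WT 1, WT 4, PKR2 2, PKR2 3 or PKR2 4), Col1a2 from -0.16 to 0.18 (above 0 without WT 2, WT 3, WT 4 or PKR2 1), Col6a2 from -0.38 to 0.28 (above 0 without WT 1, WT 4 or PKR2 3), Col5a1 from -0.02 to 0.23 (below 0 without WT 1 or PKR2 2), Col14a1 from -0.28 to 0.13 (above 0 without WT 2 or PKR2 1) and Lox from -0.56 to 0.078 (above 0 without WT 4 or PKR2 2). Without WT 1, Col15a1 turned (-0.067 to 0.19 over the 8 refits). Without WT 2, so did Col18a1 (-0.44 to 0.028) and Col4a6 (-0.29 to 0.078), and without PKR2 4, Col3a1 (-0.32 to 0.03), Col6a3 (-0.028 to 0.16) and Loxl1 (-0.038 to 0.14). The correlation of Col5a1 with Col5a2 was 0.07 under quantile normalization, 0.04 in the deposited values and -0.29 to 0.05 with 1 array left out (above 0 without WT 3). That of Col1a1 with Col1a2 was 0.82 to 0.95, with an exact adjusted p of 0.0611 without PKR2 1, and that of Col6a1 with Col6a2 0.45 to 0.80, with an exact adjusted p of 0.0489 without PKR2 3. Of 481 alternative values of the named collagen differences 55 had the other sign, and of 182 values of pathway genes 15 did. Replicate numbers were given in accession order and pair no samples, so the slide was the one block used. Of the 33 tested collagens 6 were not above background on every array, and Col12a1 was above it on 1 WT array.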
